A study of Homo sapiens with 4 samples.

Results

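The lineage markers of ovarian clear cell carcinoma (CCC) described here are ANXA4, SPP1, PAX8, NAPSA, WT1, ESR1 and PGR, and they were measured in OVSAYO cells, a human line established from such a tumour. Their probes were chosen by the RefSeq accession written beside each spot, and every probe of each gene was kept whatever its signal. This gave 12 probes for the 7 genes, out of 41000 non-control probes on an array and 17721 genes with a probe, and these 12 probes had 30 spots per array because SPP1 and ESR1 each have 1 probe printed 10 times. The RNA was hybridised to 4 single-colour Agilent 4x44K arrays of 1 slide, 1 array per condition. NS-si cells received a non-specific negative control siRNA, and Sp1-si cells received a pool of siRNAs against the transcription factor Sp1, both cultured for 40 h after transfection according to the labels. The NS-si → CoCl2 and Sp1-si → CoCl2 cells were transfected alike and then given 0.5 mM CoCl2, a chemical that mimics hypoxia, for a further 4 h. The study's account of these arrays gives a shorter culture after transfection than the labels do. All 4 conditions share 1 cell line and the transfection itself, and 1 line stands for the tumour type.

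Pathologists use these genes to assign a tumour to a cell lineage. The transcription factor PAX8 marks epithelium of Mullerian origin, and the aspartic protease napsin A (NAPSA), the calcium-dependent phospholipid-binding protein annexin A4 (ANXA4) and the secreted phosphoprotein osteopontin (SPP1) are used as markers that clear cell carcinoma often carries. The transcription factor WT1, the estrogen receptor ESR1 and the progesterone receptor PGR are typical of serous or endometrioid carcinoma and are usually low or missing in clear cell carcinoma.

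The bases before the start sites of NAPSA and ANXA4 are shown because the study silenced Sp1, which binds GC-rich boxes, and because NAPSA was the member that differed most between Sp1-si and NS-si cells whereas ANXA4 differed little. Each line gives the 250 bases that precede the start site in the RefSeq annotation of GRCh38.p14, 5′ to 3′ on the strand of the gene. They are chr19:50369303-50369552 on the minus strand for the first NAPSA start site, chr19:50365640-50365889 on the minus strand for the second, and chr2:69643558-69643807 on the plus strand for the first ANXA4 start site. Capitals mark the GC box GGGCGG or its reverse complement CCGCCC, and the letters ACGTG or CACGT of the hypoxia response element core.
NAPSA, first start site: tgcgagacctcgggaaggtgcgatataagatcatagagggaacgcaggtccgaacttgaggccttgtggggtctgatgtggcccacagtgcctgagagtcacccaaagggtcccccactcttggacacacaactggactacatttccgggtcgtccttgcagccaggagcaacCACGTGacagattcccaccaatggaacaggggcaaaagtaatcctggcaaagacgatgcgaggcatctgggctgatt
NAPSA, second start site: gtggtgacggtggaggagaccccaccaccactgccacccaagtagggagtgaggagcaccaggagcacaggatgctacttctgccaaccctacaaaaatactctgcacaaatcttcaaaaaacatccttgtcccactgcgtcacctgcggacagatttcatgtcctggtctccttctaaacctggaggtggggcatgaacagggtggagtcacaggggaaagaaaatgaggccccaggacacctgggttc
ANXA4, first start site: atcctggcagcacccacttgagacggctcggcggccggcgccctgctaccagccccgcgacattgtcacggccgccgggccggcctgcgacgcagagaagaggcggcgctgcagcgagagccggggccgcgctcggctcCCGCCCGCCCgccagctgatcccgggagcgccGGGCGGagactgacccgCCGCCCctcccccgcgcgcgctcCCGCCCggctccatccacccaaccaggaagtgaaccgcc
Neither NAPSA window held a GC box on either strand. The first NAPSA window held the palindrome CACGTG, in which ACGTG on one strand and on the other overlap and begin 77 and 76 bases before the start site. The first ANXA4 window held 5 GC boxes, which begin 111, 107, 79, 62 and 39 bases before the start site, the first 2 of them overlapping. The second ANXA4 window, which is not shown, held 3 GC boxes and also the palindrome CACGTG, with the overlapping ACGTG matches 216 and 215 bases before the start site. Among the other members, a GC box was held by 3 of 3 PGR, 2 of 6 ESR1 and 1 of 4 WT1 windows and by neither the SPP1 nor the PAX8 window. Of 35116 promoter windows of the same length, 42.6% held a GC box and 18.5% held ACGTG on at least 1 strand. A match describes letters in a window and says nothing of whether a factor was bound there.

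Signals are the processed intensities of the scanner software, in arbitrary units that differ from probe to probe, so levels are compared only between arrays for the same probe. The call of a probe as well above background on an array asks that at least 50% of its kept spots carry the call of the scanner software. Ratios are log2 differences after subtraction of the 75th percentile of each array, and a ratio was counted as a change when its size was at least 1, which is a doubling or halving, on arrays where the probe was well above background. The error beside a ratio is an SD between spots of the ratio taken spot by spot at the same array position. It comes from the own spots of the 10-spot probes and otherwise from the 50 10-spot probes of nearest signal. The error that the scanner software gives for a value, 10% for ANXA4, SPP1, NAPSA and PAX8, is not part of it. The SD covers the technical spread on a slide only. With 1 array per condition no test was possible, and a ratio larger than its SD can still differ between cultures.

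Between 75.6% and 79.1% of the probes were well above background on an array, no spot was saturated, and the signal at the 75th percentile ran from 977 to 1285. The Sp1-si → CoCl2 array had the lowest of these shares and the highest 75th percentile. Its lowest signal well above background was 10.2, against 6.72 to 7.39 on the other arrays, so dim probes passed the call less easily there. The silencing was visible in SP1 itself, whose probe A_23_P366312 read 553 on the NS-si and 39.2 on the Sp1-si array, against 429 and 38.7 with CoCl2. All 7 epithelial marker genes examined were well above background on all 4 arrays. Of the marker genes of other cells, 4 of 6 fibroblast, 4 of 6 leukocyte, 3 of 5 mesothelial, 3 of 5 granulosa and 1 of 5 endothelial genes were also well above background on all 4 arrays, with signals on the NS-si array of 1706 for THY1, 1325 for MSLN, 766 for LUM and 720 for CD68. The endothelial genes CDH5, KDR, PECAM1 and TEK, the leukocyte genes PTPRC and LYZ, the fibroblast genes COL3A1 and PDGFRB, the granulosa genes FOXL2 and CYP19A1 and the mesothelial gene DES were well above background on no array.

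Of the 12 member probes, 8 were well above background on all 4 arrays (66.7%, against 73.7% of all probes), 3 were on no array (25%, against 17.9%), and 1 was on some. The 8 probes belong to ANXA4, SPP1, PAX8, NAPSA, ESR1 and PGR. ANXA4, SPP1, PAX8 and NAPSA were thus well above background with every probe they have, whereas WT1 was with none and ESR1 and PGR with 1 probe each throughout. The markers of clear cell carcinoma were therefore measured in each condition, and neither silencing nor CoCl2 moved any of them below detection.

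NAPSA was the only member counted as changed, and only between Sp1-si and NS-si cells. Napsin A is an aspartic protease made in lung and kidney, and in the lung it helps to process surfactant protein B. Its probe A_23_P90130 read 5131 on the NS-si and 984 on the Sp1-si array, against 3835 and 965 with CoCl2. Its second probe, A_32_P107029, read 1486, 282, 1191 and 295 in that order. Both probes read lower on each Sp1-si array than on the NS-si array of the same CoCl2 treatment, and CoCl2 made little difference.

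Without CoCl2, silenced cells had 5.03-fold less NAPSA signal than control cells by the first probe (log2 ratio -2.33 ± 0.029, SD) and 5.08-fold less by the second (-2.34 ± 0.038). Under CoCl2 the signal was 5.23-fold lower (-2.39 ± 0.032) and 5.32-fold lower (-2.41 ± 0.039). The probes share 1 gene and 1 RNA per array and are not independent replicates. Among the 31437 probes measured without CoCl2, their ratios ranked 101 and 97 from the lowest, and among 30514 under CoCl2 they ranked 134 and 127. Even in Sp1-si cells both probes remained well above background.

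These 2 probes made up all the changes counted between Sp1-si and NS-si cells, 2 lower and 0 higher of 8 measured member probes both without and under CoCl2. Over all probes measured, 5.38% were lower and 5.01% higher without CoCl2, and 9.16% were lower and 6.08% higher under CoCl2. The median log2 ratio of the member probes was -0.10 without CoCl2 and -0.17 under it, against -0.02 and -0.06 for all measured probes. The other 6 measured member probes had log2 ratios between -0.63 and 0.69, so none of them reached a doubling or halving.

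CoCl2 shifted NAPSA by less than the size counted. Its log2 ratio was -0.19 ± 0.032 (first probe) and -0.09 ± 0.041 (second probe) in NS-si cells, and -0.25 ± 0.030 and -0.16 ± 0.037 after silencing. The CoCl2 ratios of Sp1-si minus those of NS-si cells came to -0.06 ± 0.043 and -0.07 ± 0.053, both within 2 SD. Without scaling the arrays, and with scaling on the median, the sign of both differences turned, and the CoCl2 ratio of the second probe in Sp1-si cells was 0.06 without scaling.

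The pseudogene NAPSB, which follows NAPSA directly in the gene table with no gene between them, had nearly the same pattern. Its probe A_23_P90125 read 1794 for NS-si and 359 for Sp1-si, and 1421 and 383 for the same cells with CoCl2. Its log2 ratio of Sp1-si to NS-si was -2.27 ± 0.034 without CoCl2 and -2.29 ± 0.035 under it. NAPSB is a close relative of NAPSA in sequence, and whether a probe of one also binds RNA of the other was not tested. Of the other aspartic proteases, 0 of the remaining 10 measured probes were counted as changed by the silencing, and cathepsin E (CTSE), the lowest of them, had a log2 ratio of -0.58 ± 0.063 without CoCl2 and -0.97 ± 0.061 under it. Pepsinogen C (PGC), at the upper end, had 0.50 ± 0.030 and 0.80 ± 0.033 by probe A_23_P7961.

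SPP1, which encodes osteopontin, a secreted ligand of integrins and CD44, was measured by probe A_23_P7313 in 10 spots per array. The probe read 287871 on the NS-si and 217471 on the Sp1-si array, against 283977 and 240836 with CoCl2. The single spots ran from 260563 to 370343, from 203604 to 251836, from 258166 to 352553 and from 221281 to 287899, so before scaling no spot of the Sp1-si array reached the lowest spot of the NS-si array, whereas the spots of the 2 CoCl2 arrays overlapped. After scaling this turned round. The highest Sp1-si spot, 7.84 on the log2 scale, just passed the lowest NS-si spot, 7.83, whereas with CoCl2 the highest spot of the silenced cells, 7.81, lay under the lowest of the control cells, 8.05. All these spots were read from the low-gain scan and scaled up by the scanner software, as were those of ANXA4 and of the brighter PAX8 probe.

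After scaling, SPP1 was highest in NS-si → CoCl2 cells, followed by NS-si, Sp1-si and Sp1-si → CoCl2 cells, each step larger than 2 SD. The single spots within an array varied more than that SD, by an SD of 0.094 to 0.156 on the log2 scale. The smallest step, 0.08 from Sp1-si to Sp1-si → CoCl2, is below these values. The scanner software put the error of each value at 10%, so the order is less certain than the steps in SD make it look. The log2 ratio of Sp1-si to NS-si was -0.35 ± 0.065 without CoCl2 and -0.63 ± 0.027 under it, both short of the size counted as a change. The log2 CoCl2 ratio was 0.21 ± 0.021 for NS-si and -0.08 ± 0.026 for Sp1-si cells, and the difference between these was -0.28 ± 0.041. The lower signal of Sp1-si cells was found under each scaling, but the CoCl2 ratios depend on the scaling. Without scaling they were -0.02 and 0.15, and the difference was 0.17. With scaling on the median they were both positive, 0.21 and 0.03, and quantile normalization put them at 0.00 and -0.01.

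The partners of osteopontin were more spread. Among the integrins and CD44 that bind it and its relatives among the bone matrix proteins, 12 probes were measured in both arrays without CoCl2, of which 1 was higher and 4 were lower in Sp1-si cells. Among those well above background on all 4 arrays, the integrin subunits ITGB3 (log2 ratio -2.27 ± 0.37) and ITGB6 (-1.90 ± 0.067) were at the lower end and ITGB5 (1.65 ± 0.027) at the upper. Under CoCl2 the same 3 genes had log2 ratios of -2.29, -1.99 and 1.43. The ITGB3 probe read 8.08 for Sp1-si and 11.1 for Sp1-si → CoCl2. These values lie near the lowest signals well above background on those arrays, 6.72 and 10.2, so the size of its ratios is uncertain. The bone matrix relatives IBSP, DMP1, DSPP and MEPE, which lie in the same family as SPP1, and the integrin subunit ITGA4 were well above background on no array.

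ANXA4 stayed within a range of 0.43 on the log2 scale over the 4 arrays. Its probe A_23_P16976 read 37530 for NS-si and 30745 for Sp1-si, and 28336 and 31378 for the same cells with CoCl2. After scaling the order was NS-si, NS-si → CoCl2, Sp1-si and Sp1-si → CoCl2, and the step between the middle pair, 0.05, was within 2 SD. The log2 ratio of Sp1-si to NS-si was -0.23 ± 0.023 without CoCl2 and -0.25 ± 0.023 under it, and the CoCl2 ratio was -0.18 ± 0.028 with the control siRNA and -0.19 ± 0.026 with that against Sp1. These shifts exceed the SD between spots but not a doubling or halving, and the scanner software put the error of each value at 10%. Without scaling the ratio under CoCl2 turned to 0.15 and the CoCl2 ratio in Sp1-si cells to 0.03. In the annexin family, which binds membranes in a calcium-dependent way, 11 other probes were measured without CoCl2. ANXA6 was higher in Sp1-si cells (log2 ratio 1.66 ± 0.17) and ANXA9 lower (-1.01 ± 0.058), and the other 9 were not counted as changed. Under CoCl2 these 2 ratios were 1.68 and -0.74, the second short of the size counted. The ANXA6 probe read only 14.7 for NS-si, where the lowest signal well above background was 7.39, so the size of its ratio is uncertain.

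PAX8, a paired-box transcription factor needed for development of the Mullerian duct and the thyroid, had 2 probes designed on different transcript variants. The probe A_23_P210001 read 53999 on the NS-si and 57505 on the Sp1-si array, against 37960 and 66200 with CoCl2. The probe A_23_P324916 read 348, 459, 316 and 600 in the same order. Both were higher in the silenced cells under each scaling. The log2 ratio without CoCl2 was 0.14 ± 0.024 by the first probe and 0.45 ± 0.044 by the second, and under CoCl2 it was 0.41 ± 0.023 and 0.53 ± 0.043.

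With CoCl2 the PAX8 probes parted. The log2 CoCl2 ratio in NS-si cells was -0.28 ± 0.028 by the first probe and 0.08 ± 0.044 by the second, while in Sp1-si cells it was -0.02 ± 0.026 and 0.16 ± 0.043. The difference, Sp1-si minus NS-si, was 0.26 ± 0.032 by the first probe and 0.08 ± 0.062 by the second. None of these reached the size counted as a change, and without scaling the CoCl2 ratio of the second probe in NS-si cells was -0.14 and that of the first in Sp1-si cells 0.20. The PAX relatives were heterogeneous: without CoCl2, PAX6 was higher in Sp1-si cells (log2 ratio 2.39 ± 0.11) and PAX3 lower (-1.58 ± 0.17), and these were the changed probes among 16 measured in the list of PAX8 and WT1 relatives and targets. Under CoCl2 the PAX6 ratio was 2.58, whereas that of the PAX3 probe, A_24_P362595, had the opposite sign, 1.35. The PAX3 probe read 9.42 on the NS-si → CoCl2 array, near the lowest signal well above background there, 6.93. PAX6 was dim too, with 22.4 for NS-si and 13.2 for NS-si → CoCl2. The sizes of these ratios and the change of sign are therefore uncertain. The other PAX3 probes were well above background on no array.

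WT1, a zinc finger transcription factor of mesothelium and serous carcinoma, missed the background call on every array. Its probe A_23_P116280 gave 1.93 for NS-si and 1.69 for Sp1-si, and 1.73 and 2.58 for the same cells with CoCl2, 0.250 to 0.260 times the lowest signal well above background on the array, and the scanner software put the error of each value at 99.7% to 99.9%. No ratio is given, and the values bound the signal of this probe rather than show that the RNA was absent.

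ESR1 had 3 probes that disagreed on detection. The probe A_24_P383478 was well above background on all 4 arrays and read 54.4 on the NS-si and 53.7 on the Sp1-si array, against 45.0 and 55.8 with CoCl2. After scaling these differed in all by 0.17 on the log2 scale, with no step between neighbours in their order beyond 2 SD, and the log2 ratio of Sp1-si to NS-si was 0.04 ± 0.11 without CoCl2 and -0.08 ± 0.12 under it, where values of -0.02 and 0.31 without scaling had the opposite sign. The 10-spot probe A_23_P309739 read 9.96, 6.56, 9.19 and 9.43, close to the lowest signal well above background, and it was well above background in 7 of 9 kept spots of the NS-si, 2 of 7 of the Sp1-si, 7 of 10 of the NS-si → CoCl2 and 0 of 9 of the Sp1-si → CoCl2 array. Without CoCl2 this gives only a bound, at least 1.43-fold lower in the silenced cells, with an SD between spots of 0.40 on the log2 scale that is nearly as large. Under CoCl2 no fold is given, because the signal of the silenced cells was the higher one before scaling and the lower one after it. The lowest signal well above background also differed, 10.2 on the Sp1-si → CoCl2 array and 6.93 on the NS-si → CoCl2 array. The spot calls of these arrays are therefore not a comparison of level. The third probe, A_24_P325215, read between 1.39 and 2.15 and was well above background on no array.

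PGR was split in the same way. The probe A_23_P138938 read between 1.61 and 2.51 and was well above background on no array. The probe A_32_P49199 was well above background on all 4. Before scaling it read 26.7 for NS-si and 41.6 for Sp1-si, and 24.9 and 35.3 for the same cells with CoCl2. The log2 ratio of Sp1-si to NS-si was 0.69 ± 0.15 without CoCl2 and 0.11 ± 0.16 under it. The CoCl2 ratio was 0.13 ± 0.15 for NS-si and -0.46 ± 0.13 for Sp1-si cells, with a difference of -0.59 ± 0.21. After scaling the Sp1-si array stood above the other 3, which did not differ beyond 2 SD from their neighbours. After a normexp background correction the log2 ratio of Sp1-si to NS-si was 0.25 without CoCl2 and -0.15 under it, and without scaling the CoCl2 ratio in NS-si cells was -0.10.

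Related receptor genes were examined beside ESR1 and PGR. The estrogen receptor ESR2 was well above background on no array. Of 18 probes of steroid receptors and their cofactors measured without CoCl2, 0 were higher and 2 lower in Sp1-si cells, both of the glucocorticoid receptor NR3C1 (log2 ratios -1.48 ± 0.13 and -1.09 ± 0.078). Of 21 probes of estrogen receptor target genes, 0 were higher and 1 lower, that of the scaffold protein PDZK1 (-1.62 ± 0.033). CoCl2 raised 2 and lowered 1 of 20 target probes in NS-si cells. The raised probes were both of the secreted glycoprotein STC2 (3.24 ± 0.099 and 3.12 ± 0.059) and the lowered one was of PDZK1 (-1.66 ± 0.039).

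CoCl2 changed no member probe by the size counted. In NS-si cells 0 of 9 measured member probes were higher and 0 lower, where 4.06% of all measured probes were higher and 3.83% lower, and in Sp1-si cells 0 of 8 were, where the shares were 3.47% and 5.74%. The median log2 CoCl2 ratio of the members was -0.05 in NS-si cells, against 0.02 for all measured probes, and -0.17 in Sp1-si cells, against -0.01. The difference between the CoCl2 ratios reached the size counted in 0 of 8 member probes, where it was at least 1 in 1.05% and at most -1 in 4.87% of all measured probes. These counts do not stand apart from the shares over all probes.

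Other genes linked to clear cell carcinoma were also present. All 15 genes in a list of further genes associated with clear cell carcinoma were well above background on all 4 arrays by at least 1 probe. Without CoCl2, 3 of their 22 measured probes were higher and 1 was lower in Sp1-si cells. The antioxidant enzyme GPX3 (log2 ratio 2.38 ± 0.026) and the cell surface proteoglycan GPC3 (2.29 ± 0.067) stood at the upper end and the protease inhibitor TFPI2 (-1.26 ± 0.024) at the lower. Under CoCl2 these 3 had log2 ratios of 2.77, 2.36 and -1.50.

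Of 18 probes of Mullerian lineage and serous carcinoma markers, 1 was higher and 0 were lower in Sp1-si cells without CoCl2, and 1 was higher and 4 were lower under it. In that list a dim probe of MECOM, a zinc finger factor, was at the upper end without CoCl2 (1.46 ± 0.096 by A_24_P153490, which read 78.3 for NS-si). The other 3 measured MECOM probes, 2 of them far brighter, had log2 ratios of 0.07 to 0.32, so the MECOM probes disagreed. SOX17, which shapes Mullerian epithelium, was at the lower end under CoCl2 by A_24_P46946 (-1.50 ± 0.032), whereas its brighter probe A_23_P82775 had -0.22. MUC16, which carries the CA125 antigen, was at the lower end without CoCl2 with -0.998 ± 0.031, just short of the size counted. Unlike the members, this list held changes with CoCl2. In NS-si cells CoCl2 raised 2 and lowered 5 of the 18 probes, where 4.06% and 3.83% of all measured probes were. In Sp1-si cells it raised 1 and lowered 6, where 3.47% and 5.74% were. The lowered probes included every measured MECOM probe, which share a gene, and the brighter FOXJ1 probe (-1.54 and -2.38).

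The medians of the log2 ratio between silenced and control cells without CoCl2 describe these lists, beside -0.02 for all measured probes. The median was 0.08 for the further clear cell carcinoma genes, -0.03 for the Mullerian and serous markers and -0.10 for the relatives and targets of PAX8 and WT1. It was -0.52 for the osteopontin receptors and relatives, -0.13 for the annexins, 0.24 for the aspartic proteases, 0.28 for the steroid receptors and cofactors and -0.03 for the estrogen receptor targets.

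Some markers of other cells moved with the silencing. Among 4 measured fibroblast probes, 2 were lower in Sp1-si cells without CoCl2, with COL1A2 the lowest at a log2 ratio of -3.10. This COL1A2 probe read 77.5 for NS-si and 8.69 for Sp1-si, near the lowest signal well above background on that array, 6.72. The other COL1A2 probe was well above background on no array, and THY1, the brightest gene of the list, had a log2 ratio of 0.05. The signal of the list summed over its 6 genes was 2.26 for NS-si and 1.90 for Sp1-si, and 2.78 and 1.97 with CoCl2, in multiples of the 75th percentile signal. The leukocyte list, summed over 6 genes, was 1.03, 0.592, 1.25 and 0.738 in that order, with CD68 lower in Sp1-si cells (-1.48). Of the epithelial probes CDH1 was lower (-1.55), and the summed epithelial signal was 554, 537, 569 and 524. Their part in the NAPSA result was not tested.

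The genes whose pattern over the 4 arrays was nearest to that of a member were found by the root mean square difference between log2 values, each probe centred on its own mean, among 14290 genes. The comparison rests on 4 points per gene, and the probes share the same 4 RNAs. For the first NAPSA probe they were PCK2 (0.053), ACOX2 (0.062) and NAPSB (0.066), and for the second LPGAT1 (0.040), ACOX2 (0.043) and NAPSB (0.052). For SPP1 they were TMPRSS4, CORO2B and PHACTR2, with differences of 0.020 to 0.022. For ANXA4 they were ACTR10, IFI27L1 and ZNF718, and for PGR they were NTSR1, LILRA4 and FZD9. For PAX8 they were DUSP11, CAPRIN1 and KLHL42 by the first probe, and MYO19 and BPTF were among the 3 nearest by the second. For the ESR1 probe well above background throughout they were NMRAL1, SLC27A4 and RALY.

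**Figure D1:**
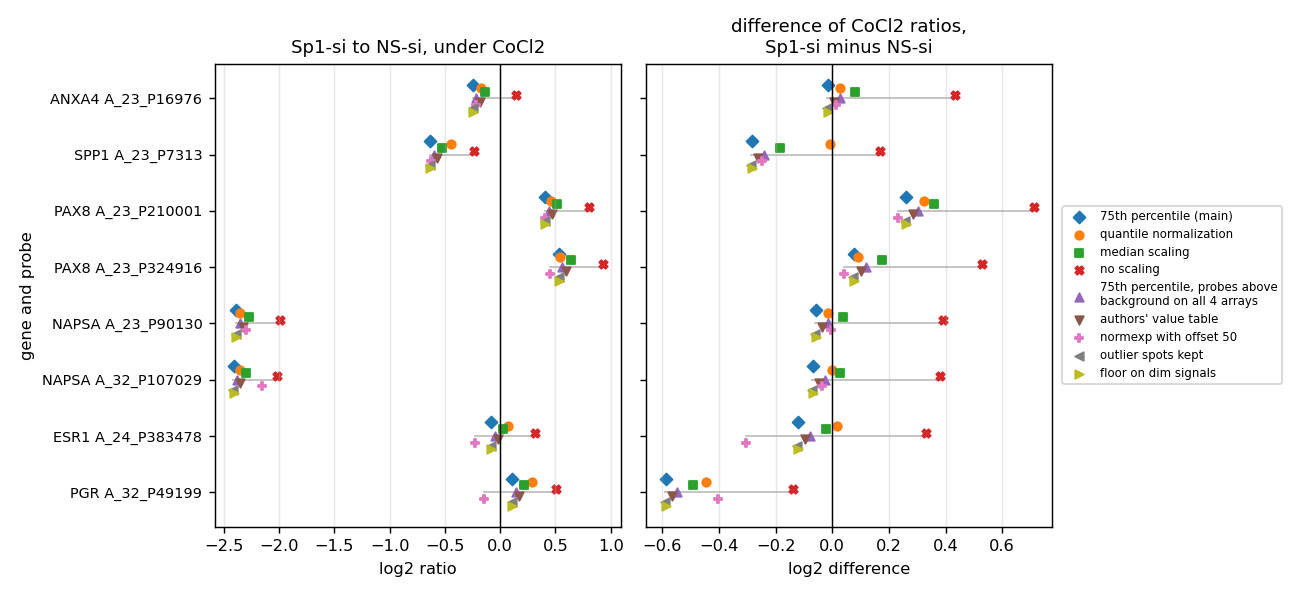
Log2 ratio of Sp1-si to NS-si under CoCl2 (left) and difference of the CoCl2 ratios (right) of the 8 member probes, computed under each scaling, background and outlier setting, 1 symbol per setting. NAPSA stays at or under -1.99 on the left in all of them, whereas leaving the arrays unscaled moves every difference on the right upward, for SPP1 from -0.28 to 0.17.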

How the data were processed

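RNA of OVSAYO cells was measured on 4 single-colour arrays, 1 per condition, grouped by the labels. The deposited intensities are the processed signals of Agilent Feature Extraction 10.5.1.1 per the file headers, after background subtraction and spatial and multiplicative detrending by the authors' scanner software, with a low substitute value for signals not above background, with no normalization between arrays. The authors' value table equals these intensities times 1 constant per array. Its column medians are 216 (NS-si), 220 (Sp1-si), 204 (NS-si → CoCl2) and 197 (Sp1-si → CoCl2), and the origin of the constants is not given in the sources used here. The array number limits the precision.

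Here, log2 signals of non-control spots without outlier calls were scaled by subtraction of the 75th percentile of the array and averaged over the spots of a probe. Where only 1 side of a ratio was well above background, the fold is a lower bound against the higher of the dim signal and the lowest signal well above background. Where neither was, none is given. The values of bright probes rest on the low-gain scan. RefSeq accessions gave 26222 probes a symbol, matching 28463 of 29296 spots with such an accession. Every probe of each member is reported, and from each list at most the 2 highest and 2 lowest probes per ratio are named, SP1 always, with the 3 nearest genes of a member probe. Markers of other cells and list genes on no array are named as such. The members and lists were chosen with earlier results of these data known. Alternatives were other scalings, normexp on median spot and background signals with an offset of 50 (limma 3.58.1), outlier spots kept, a floor on dim signals, other background calls and a fold of 1.5. The array annotation is on hg18 and the promoter windows on GRCh38.p14. Some results are not reported here. Counting was tested on simulated data. Python 3.11.15, numpy 2.4.6, pandas 2.3.3, matplotlib 3.10.9 and R 4.3.3 were used.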

Additional observations from a re-analysis of the deposited data

Results flagged for a closer look

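The CoCl2 ratio of SPP1 had opposite signs in the 2 kinds of cells after scaling on the 75th percentile, but not under each scaling. The log2 CoCl2 ratio of probe A_23_P7313 was 0.21 ± 0.021 for NS-si and -0.08 ± 0.026 for Sp1-si cells, each from 10 spots on 1 array per condition, a difference of -0.28. The difference was not tested, since each condition has 1 array, and it was 0.17 without scaling between the arrays, where both signs were swapped. With scaling on the median both ratios were positive, 0.21 and 0.03, and with quantile normalization they were 0.00 and -0.01. PGR probe A_32_P49199 also had opposite signs, 0.13 ± 0.15 and -0.46 ± 0.13, but the first lies within its SD.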

How the results depend on the processing

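The count of member probes lower in Sp1-si cells, 2 without and 2 under CoCl2, was found under every alternative scaling, background and outlier setting. The log2 ratio of NAPSA ranged from -2.40 to -2.12 without CoCl2 and from -2.41 to -1.99 under it over both probes. At a fold of 1.5, 1 member probe, that of PGR, had a lower CoCl2 ratio in silenced than in control cells in place of 0, PGR was also counted as higher without CoCl2, and SPP1 as lower under it. Over all measured probes, that fold counted 3804 of 30234 for the lower difference. It counted 3834 of 31437 as higher in Sp1-si cells without CoCl2 and 6340 of 30514 as lower under it, so such calls were common. Each single ratio was compared with its main value once under each alternative setting. In 126 of these comparisons it moved by more than the SD between spots and in 202 it did not. The small ratios of ANXA4, SPP1, PAX8, ESR1 and PGR depend on the scaling. Leaving the arrays unscaled shifted the median log2 ratio of all probes under CoCl2, Sp1-si to NS-si, from -0.06 to 0.34, and turned the counts over all probes from 1856 higher and 2794 lower to 4278 and 1276. For the CoCl2 ratio the counts went from 1270 and 1198 to 772 and 2050 in NS-si cells and from 1066 and 1760 to 1873 and 1044 in Sp1-si cells, and for the difference from 317 and 1471 to 1945 and 358. No paired analysis was possible because each condition has 1 array. WT1, PGR A_23_P138938 and ESR1 A_24_P325215 lie under the background and allow no ratio. The spread between cultures is unknown.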
